A study of Homo sapiens and Mus musculus with 24 samples.

Results

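Replication-dependent histone genes encode the core histones H2A, H2B, H3 and H4 and the linker histone H1 that package DNA as it is copied. They were taken from the annotation by name, as protein-coding genes whose symbol began with HIST1H, HIST2H, HIST3H or HIST4H in the older scheme or matched H2AC, H2BC, H3C or H4C with a number or H1-1 to H1-5 in the newer one, without pseudogenes and replacement histones. This gave 70 human and 67 mouse genes, 137 of 112096 genes counted. Those of human comprised 6 of H1, 17 of H2A, 18 of H2B, 14 of H3 and 15 of H4, and the mouse genes 6, 18, 18, 12 and 13. The older names brought in H1-6 and H3-4, which the newer scheme numbers apart from the others. Most lay in the large histone cluster of each species, with 55 of the 70 human genes on chromosome 6 and 54 of the 67 mouse genes on chromosome 13.

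The libraries come from UPA-seq, in which cells are irradiated with UV to crosslink RNA to bound proteins and RNA is then recovered by acid phenol extraction, so that heavily crosslinked RNA is lost from the aqueous phase. RNA was sequenced from HepG2 (a human hepatocellular carcinoma line), HEK293 (a human embryonic kidney line), Neuro2a (a mouse neuroblastoma line) and HippCulture (primary hippocampal neurons of E16.5 mouse embryos). In each cell type 3 libraries were from cells irradiated with 120 mJ/cm2 and 3 from nonirradiated cells, 24 in all. No genotype or drug distinguished the groups. All libraries were made after removal of ribosomal RNA, and every lysate was heated before chloroform was added. The kidney line is HEK293 in the labels and HEK293T in the methods. HippCulture came from C57/BL6NCr embryos, whose number is not given in the sources used here, and both conditions had been exposed to AraC, which kills dividing cells, to remove glia.

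A counted read reports RNA that stayed in the aqueous phase and was reverse transcribed, and each value is relative to the rest of the same library. The paper proposes that bonds formed by UV also hindered reverse transcription. Loss from the aqueous phase and hindered copying cannot be told apart in these counts. In bulk samples, fewer cells of a type and less RNA per cell cannot be told apart. Library totals were 36573473 to 53511592 counts in HepG2 and 6910907 to 11188033 in the other cell types. HepG2 was sequenced on another instrument than the rest, so instrument and cell type cannot be told apart. Hepatocyte genes matched the HepG2 label, with ALB at 10800 to 15300 counts scaled to each library's total (CPM) in nonirradiated HepG2 and 0.104 to 0.106 in nonirradiated HEK293. The neuronal gene Map2 stood at 1490 to 1780 CPM in nonirradiated HippCulture and 77.8 to 90.2 in Neuro2a, whereas the astrocyte gene Gfap was also present in HippCulture, at 71.5 to 87.1 CPM. Hand2, a gene of the sympathetic lineage, was at 114 to 118 CPM in nonirradiated Neuro2a.

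Cells transcribe these genes mainly in S phase, when new DNA needs histones. Their mRNAs are the exception among animal mRNAs in ending without a poly(A) tail. A short hairpin after the stop codon, bound by the stem-loop binding protein SLBP, takes its place, and the U7 small nuclear ribonucleoprotein directs cleavage just downstream. The same hairpin is used in translation and in the rapid decay of the mRNA at the end of S phase. Most of the genes have no intron, and many copies encode the same protein.

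The hairpin, which the choice of genes did not use, was searched on the gene's strand in the 150 bases after the stop codon as a 16-base run that begins with GG, ends with CC, pairs 6 bases with 6 around a 4-base loop and has T at the first and the third loop base, with at most 1 unpaired position. All 70 human and 65 of the 67 mouse genes held one, and all of these were fully paired. A G opposite a T counted as a pair, here and in the search of other genes. Among other protein-coding genes, 38 of 19875 in human (0.191%) and 27 of 21685 in mouse (0.125%) held a fully paired match in the same window. The hairpin began 22 to 67 bases after the stop codon in human (median 35) and 21 to 58 in mouse (median 30). The following examples, read from GRCh38 and GRCm38 and written as DNA from 5′ to 3′, show the common forms and the genes on which later comparisons turn. Capitals mark the stem-loop.
H1-2: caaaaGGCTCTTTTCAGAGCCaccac
H3C2: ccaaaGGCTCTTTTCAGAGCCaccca
H2BC6: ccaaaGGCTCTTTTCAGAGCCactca
H2BC11: ctaacGGCTCTTTTAAGAGCCaccca
H4C3: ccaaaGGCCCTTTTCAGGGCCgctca
H4C12: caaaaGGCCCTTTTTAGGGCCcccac
Hist1h1c: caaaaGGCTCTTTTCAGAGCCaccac
Hist2h2bb: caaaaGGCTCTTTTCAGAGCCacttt
Hist3h2a: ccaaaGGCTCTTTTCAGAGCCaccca
Hist1h4f: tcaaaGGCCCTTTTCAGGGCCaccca
Hist2h3c1: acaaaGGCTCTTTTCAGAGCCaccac

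The stem-loop of H1-2 lies at chr6:26055744-26055759 on the minus strand of GRCh38, that of H4C3 at chr6:26104317-26104332 on the plus strand and that of H2BC6 at chr6:26184210-26184225 on the plus strand. In GRCm38, the stem-loop of Hist1h1c is at chr13:23739512-23739527 and that of Hist3h2a at chr11:58955172-58955187, both on the plus strand. Hairpins of the form printed for H1-2 were found in 81 genes (40 human and 41 mouse), those of the H2BC11 form in 19, those of the H4C3 form in 18 and those of the H4C12 form in 6. No hairpin was found after the stop codon of Hist2h2be, an H2B gene, or Hist1h2an, an H2A gene. The exons against which reads were counted covered the hairpin in 32 human and 46 mouse genes, so in the remaining genes with one the hairpin was not wholly within the counted region.

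Many of the genes are close copies. The share of 50-base windows of a gene's exons that occurred in no other histone gene was at least 80% in 54 human genes but in only 16 mouse genes, so the reads of single mouse genes are the more uncertain. Some exons also overlapped those of another gene, in 14 human and 24 mouse genes, and the counting used no strand. Values of single genes below carry these limits.

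Reads on the histone genes took a larger share of every irradiated library than of any nonirradiated library of the same cell type. In HepG2 the share was 0.359%, 0.497% and 0.492% of all counts without UV and 1.1%, 1.08% and 1.06% after UV. HEK293 held the largest shares, 1.05%, 0.688% and 0.819% without UV and 2.25%, 1.53% and 1.98% after UV. In Neuro2a the shares were 0.611%, 0.405% and 0.367% before and 1.16%, 0.842% and 0.758% after. HippCulture had the smallest, at 0.081%, 0.0883% and 0.0785% without UV and 0.161%, 0.178% and 0.209% after UV. Means of irradiated libraries were 2.41 times those of nonirradiated ones for HepG2, 2.25 times for HEK293, 2.0 times for Neuro2a and 2.22 times for HippCulture. With 3 libraries against 3, an exact two-sided permutation test cannot go below p = 0.1. Beside this, replicate 1 held the largest share in both conditions of HEK293 and of Neuro2a.

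**Figure D1:**
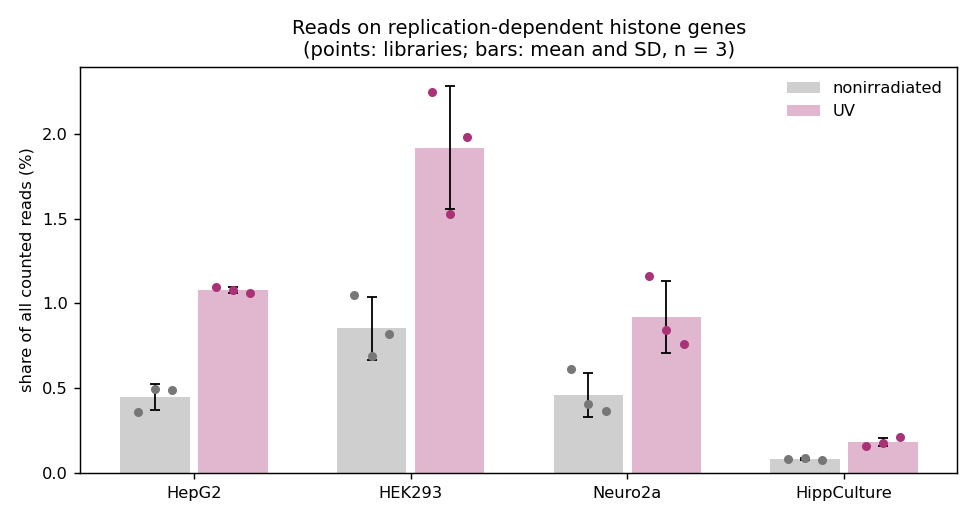
Share of all counted reads that fell on replication-dependent histone genes (y axis, %) in nonirradiated (grey) and UV-irradiated (magenta) libraries of the 4 cell types; points are libraries and bars are means with SD (n = 3). Every irradiated library lies above all nonirradiated libraries of its cell type, with means of 0.449% and 1.08% in HepG2 and 0.0826% and 0.183% in HippCulture.

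A few genes supplied much of this signal. The 5 with the most reads held 34.4% (HepG2), 40.7% (HEK293), 35.6% (Neuro2a) and 39.3% (HippCulture) of the histone counts. H1-2 and H1-4, which encode linker histones, and H3C2, an H3 gene, were among the 5 in both human lines. Hist1h1c and Hist1h1e, linker histone genes, Hist2h2bb and Hist3h2a were among them in both mouse cell types. The proportions of the families shifted by a few percentage points after UV. H1 genes took a mean of 18.1% of the histone counts in nonirradiated and 19.0% in irradiated HepG2. The libraries overlapped, at 17.4% to 19.6% and 18.6% to 19.3%. In HepG2 H2B genes took 26.8% to 27.7% in the nonirradiated and 24.7% to 25.5% in the irradiated libraries, without overlap, and in HEK293 a mean of 29.6% and 26.5%. In HippCulture the mean share of H2A genes went from 17.0% to 14.5%. The mean share of H4 genes went from 30.8% to 33.0%, with overlap (29.0% to 31.9% and 31.6% to 33.7%).

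The effect of UV on single genes was tested with edgeR, using TMM factors to scale the libraries and a false discovery threshold of 0.05, over genes with a mean of at least 0.5 CPM in the nonirradiated libraries. In HepG2, 50 of the 70 genes passed this filter, of which 49 were called higher after UV and none lower. Of all 20117 genes tested in HepG2, 38.1% were called higher and 40.7% lower. The 3 irradiated values lay above the 3 nonirradiated ones for the same 49 genes, against 39.6% of all genes tested. The median log2 fold change (UV/nonirradiated) of the histone genes was 2.56, a 5.91-fold difference, beside −0.08 over all genes tested, and it lay above 99.4% of these. In HEK293, 50 genes were tested, 45 were higher and none lower, with background shares of 24.2% and 26.4%. Their median was 1.97 beside −0.08. In 45 of them the groups did not overlap, as in 27.1% of all genes.

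The mouse cells gave like counts. In Neuro2a, 54 of 57 tested genes were called higher and 1 lower, against 28.9% and 33.0% of all genes tested, with a median of 2.17 beside −0.14. HippCulture also had 54 of 57 higher and 1 lower, against 26.1% and 25.9%, with a median of 1.82 beside −0.04. Irradiated values above all nonirradiated values were seen for 54 genes in each, beside 30.4% of all genes in Neuro2a and 29.3% in HippCulture. Genes left out by the filter numbered 20 in each human line and 10 in each mouse cell type, and none of them exceeded 52 counts in any library.

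Scaling sets the zero of these fold changes. The TMM factors ran from 1.54 to 1.59 in nonirradiated and from 0.619 to 0.655 in irradiated HepG2, and from 1.1 to 1.29 and 0.718 to 0.904 in HippCulture. Scaled by library total alone, the median of all genes fell to −1.39 for HepG2, −0.84 for HEK293, −1.33 for Neuro2a and −0.59 for HippCulture. The histone medians were then 1.25, 1.19, 0.98 and 1.28. Relative to the median of all genes they stood at 2.64, 2.02, 2.31 and 1.86. With TMM factors these were 2.64, 2.05, 2.32 and 1.86. Scaling moves all genes of a library by a common factor, so these sets are close by construction. No family's median changed direction.

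**Figure D2:**
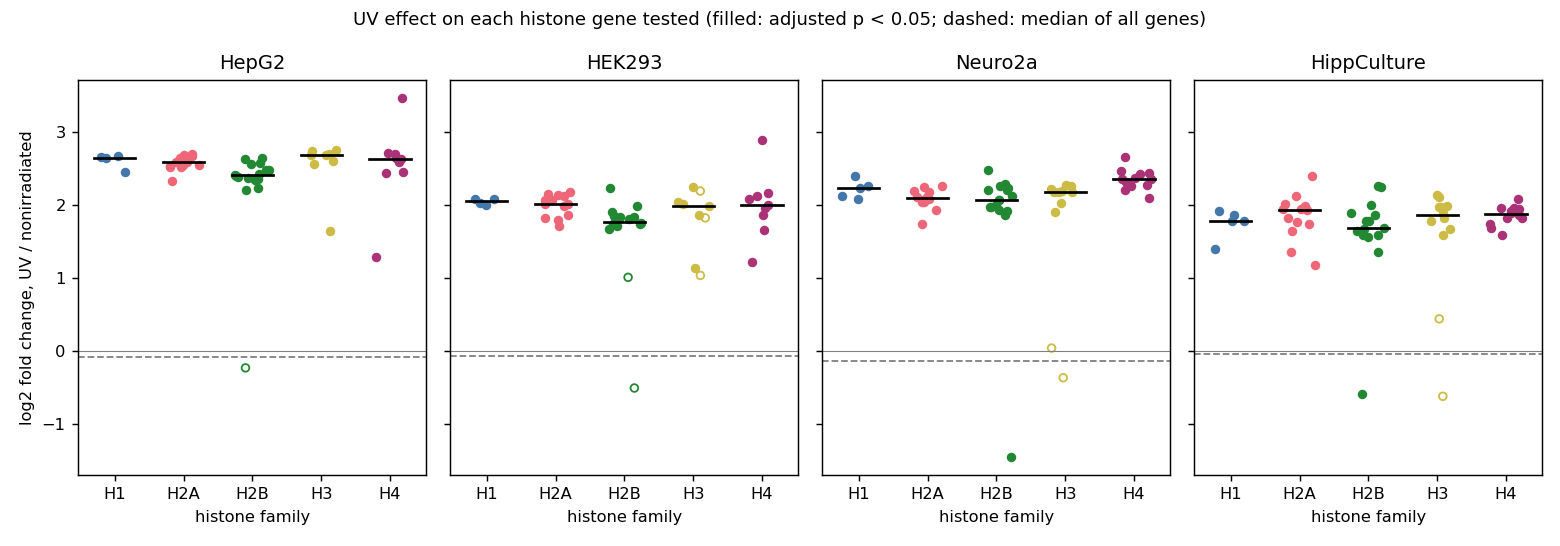
Log2 fold change (UV/nonirradiated, y axis) of each histone gene tested, by family (x axis) in the 4 cell types; filled points have an adjusted p under 0.05, black lines are family medians and the dashed line is the median of all genes. Family medians lie between 1.69 and 2.68, and the few open or negative points are H2B and H3 genes.

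H1 genes encode the linker histones that bind DNA where it enters and leaves the nucleosome. Every H1 gene tested was called higher, 4 of 4 in each human line and 5 of 5 in each mouse cell type, with family medians of 2.65 (HepG2), 2.04 (HEK293), 2.23 (Neuro2a) and 1.77 (HippCulture). H1-2 had the highest length-corrected level of the family in both human lines. In nonirradiated HepG2 its level in TMM-scaled CPM, the scale of all values per library that follow, was 229, 294 and 290, and after UV 1750, 1730 and 1610. The groups stood far apart, with a log2 fold change of 2.65 ± 0.12 (SE, n = 3 and 3, edgeR adjusted p = 2.98e-07). In HEK293, H1-2 was at 998, 612 and 707 without UV and at 3790, 2390 and 3020 after UV. The library with the highest value was replicate 1 in both conditions, the groups did not overlap, and the log2 fold change was 1.99 ± 0.23 (adjusted p = 0.000156). H1-4 moved by 2.64 ± 0.10 and 2.08 ± 0.24 in the same lines, H1-3 by 2.45 ± 0.16 and 2.02 ± 0.22, H1-5 by 2.66 ± 0.12 in HepG2 and H1-6 by 2.07 ± 0.36 in HEK293.

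Among the mouse linker histones, Hist1h1c rose in Neuro2a from 265, 197 and 187 to 1150, 1160 and 1090. In HippCulture the same gene went from 39.9, 65.6 and 44.3 to 108, 153 and 132. The groups did not overlap in either, and the log2 fold changes were 2.39 ± 0.13 (adjusted p = 4.1e-09) and 1.39 ± 0.14 (adjusted p = 8.88e-08). The other H1 genes tested, Hist1h1a, Hist1h1b, Hist1h1d and Hist1h1e, had log2 fold changes of 2.08 to 2.26 in Neuro2a and 1.77 to 1.92 in HippCulture. Hist1h1d has the longest exons of all the histone genes, 7425 bases, and stood among them at 2.23 and 1.77.

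H2A and H2B form the dimers that flank the H3-H4 core of the nucleosome. All H2A genes tested were higher, 13 of 13 in HepG2, HEK293 and HippCulture and 12 of 12 in Neuro2a. Their medians were 2.58, 2.01 and 1.93 in the first 3 and 2.09 in Neuro2a. H2AC7, the H2A gene with the highest length-corrected level in HepG2, was at 58.5, 82.5 and 85.6 without UV and at 506, 480 and 448 after UV. These groups were clearly apart, at a log2 fold change of 2.66 ± 0.15 (adjusted p = 5.7e-07). In HEK293 the gene in that place was H2AC12, with 349, 118 and 107 without UV and 1430, 483 and 578 after UV. Replicate 1 was well above the others in both conditions, and the log2 fold change of 2.12 ± 0.53 (adjusted p = 0.00933) had the larger error. Hist1h2ak in Neuro2a rose by 2.07 ± 0.21, and Hist3h2a in HippCulture by 1.17 ± 0.10, the smallest rise among the H2A genes there. Hist1h2ag in HippCulture, with 0.582, 1.14 and 0.697 before and 3.84, 4.24 and 4.65 after UV, had the largest of that cell type, 2.39 ± 0.31 (adjusted p = 2.2e-06).

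H2B genes had the lowest family median in every cell type, at 2.40 (HepG2), 1.76 (HEK293), 2.06 (Neuro2a) and 1.69 (HippCulture). They were still called higher in 15 of 16, 13 of 15, 15 of 16 and 14 of 15 cases. In HepG2 the most abundant per length was H2BC17, at 70.5, 101 and 101 without UV and 485, 466 and 440 after UV, a log2 fold change of 2.35 ± 0.14 (adjusted p = 8.69e-07). H2BC12 in HEK293 went from 431, 298 and 307 to 1450, 934 and 1120, a change of 1.76 ± 0.21 (adjusted p = 0.000186). Both genes had all irradiated values above all nonirradiated ones. Hist2h2bb held this place in both mouse cell types. It was at 400, 265 and 241 in nonirradiated and 1700, 1090 and 986 in irradiated Neuro2a, a change of 2.06 ± 0.21 (adjusted p = 1.36e-06). In HippCulture it rose from 33.2, 31.0 and 34.6 to 93.3, 118 and 105, a change of 1.67 ± 0.10 (adjusted p = 8.34e-11).

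H3 and H4 form the tetramer at the centre of the nucleosome. H4 genes rose without exception among those tested, 9 of 9 in HepG2 and HEK293, 13 of 13 in Neuro2a and 12 of 12 in HippCulture, with medians of 2.63, 1.99, 2.35 and 1.87. H3 genes were called higher in 8 of 8, 6 of 9, 9 of 11 and 10 of 12 cases, with medians of 2.68, 1.99, 2.17 and 1.86. H3C2 was the H3 gene with the highest length-corrected level in both human lines. In HepG2 it went from 170, 222 and 214 to 1340, 1310 and 1230, a log2 fold change of 2.68 ± 0.12 (adjusted p = 2.93e-07). In HEK293 its values were 598, 427 and 572 without UV and 2470, 1630 and 2240 after UV, a change of 1.99 ± 0.20 (adjusted p = 8.48e-05). The irradiated libraries lay above the nonirradiated ones in both lines. H4C3, the corresponding H4 gene, rose from 71.1, 110 and 109 to 614, 601 and 575 in HepG2 (2.63 ± 0.16). In HEK293 it rose by 2.17 ± 0.24.

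In the mouse cells, Hist1h3c led the H3 genes of Neuro2a at 104, 56.5 and 56.4 without UV and 435, 318 and 282 after UV (2.26 ± 0.22, adjusted p = 7.8e-07). Hist1h3e led those of HippCulture, rising from 20.9, 20.2 and 22.0 to 59.5, 81.3 and 75.9 (1.77 ± 0.11). Of the H4 genes, Hist1h4k rose by 2.32 ± 0.22 in Neuro2a and Hist1h4d by 1.68 ± 0.11 in HippCulture. The steepest rise of any histone gene in HepG2 was that of H4C12, from 0.391, 0.505 and 0.487 to 5.08, 5.45 and 4.97, a log2 fold change of 3.47 ± 0.16 (adjusted p = 3.21e-07). In HEK293 it was H4C11, from 0.593, 0.324 and 0.379 to 2.7, 3.14 and 3.88 (2.89 ± 0.35). Neuro2a had Hist1h4n in this position, going from 0.389, 0.365 and 0.268 to 2.79, 2.06 and 1.85 (2.66 ± 0.42). All 3 were at low level, with as few as 22, 4 and 3 counts in the library with the fewest. Only 0.0%, 18.8% and 14.4% of their 50-base windows occurred in no other histone gene, so their reads may come from copies.

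**Figure D3:**
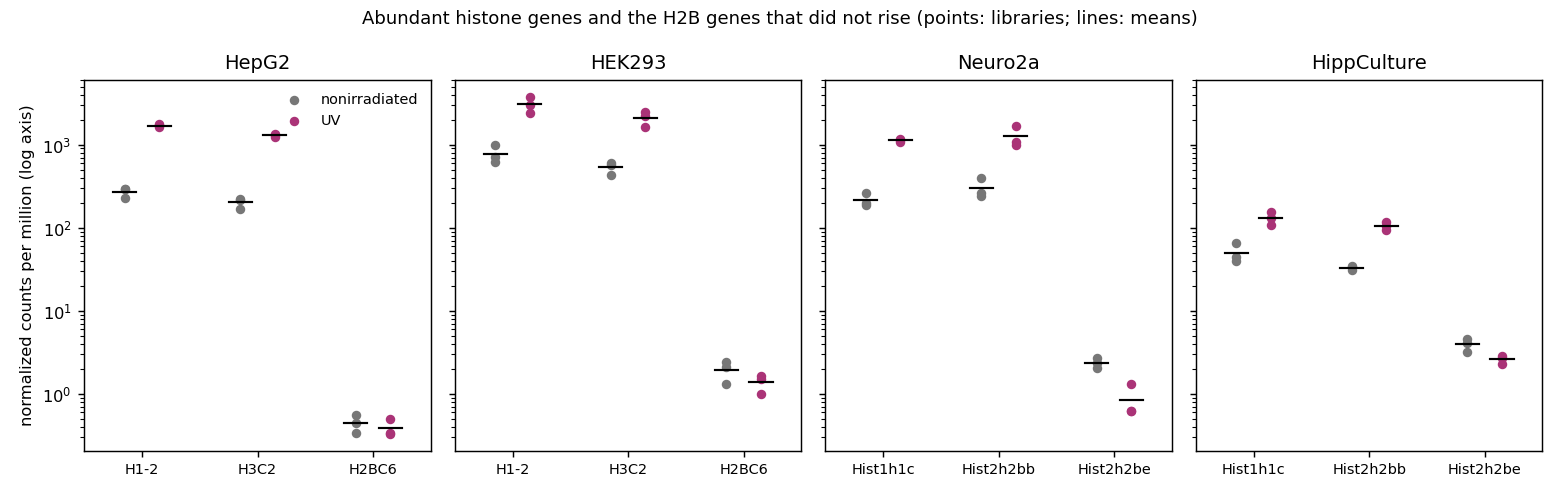
TMM-scaled CPM (y axis, log scale) of 2 abundant histone genes and of an H2B gene that did not rise, in each library of the 4 cell types; points are libraries, grey nonirradiated and magenta UV-irradiated, and lines are means. H1-2 in HepG2 goes from a mean of 271 to 1700 and Hist2h2bb in HippCulture from 32.9 to 105, whereas H2BC6 and Hist2h2be lie below 5 in all libraries.

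A handful of H2B and H3 genes were not called higher. H2BC6 was at 0.338, 0.564 and 0.441 without UV and 0.341, 0.492 and 0.329 after UV in HepG2. In HEK293 it was at 2.12, 1.3 and 2.43 without UV and at 1.5, 1.63 and 0.997 after UV. Its groups overlapped in both lines, and the log2 fold changes of −0.24 ± 0.36 (adjusted p = 0.558) and −0.51 ± 0.35 (adjusted p = 0.255) missed the threshold. Scaled by library total alone, H2BC6 was called lower, at −1.54 (adjusted p = 0.00268) and −1.27 (adjusted p = 0.0122). The listed gene has 4 exon blocks and 2585 exon bases, of which 730 are shared with ENSG00000283064 on the opposite strand. Its stem-loop, printed above, has the commonest form.

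Hist2h2be was the only histone gene called lower with TMM factors. In Neuro2a it fell from 2.72, 2.34 and 2.05 to 1.3, 0.617 and 0.616, a log2 fold change of −1.45 ± 0.39 (adjusted p = 0.00529), and no irradiated value reached a nonirradiated one. In HippCulture it went from 4.56, 4.04 and 3.19 to 2.28, 2.82 and 2.71. Here too the groups did not overlap, but the change of −0.60 ± 0.25 sat at the threshold (adjusted p = 0.0498). That call was lost with DESeq2 (adjusted p = 0.151), without the filter on low counts (0.0558) and with a replicate block (0.0547). It was also lost without HippCulture UV replicate 1, 2 or 3 or without nonirradiated replicate 1 or 2, where the adjusted p was 0.0641 to 0.207. The single exon of Hist2h2be is 2620 bases long, and no hairpin was found after its stop codon. The other gene without one, Hist1h2an, rose in Neuro2a from 8.64, 5.62 and 5.45 to 43.8, 25.5 and 25.1, a change of 2.26 ± 0.23 (adjusted p = 1.21e-06), although its reads may come in part from near-identical copies.

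The remaining genes that were not called were picked out after their values were seen. The neighbouring H3 genes Hist2h3c1 and Hist2h3c2 were at or below 1.48 in every library of both mouse cell types. Their log2 fold changes ran from −0.63 ± 0.42 for Hist2h3c1 in HippCulture to 0.44 ± 0.51 for Hist2h3c2 in the same cells. In HEK293, H3C1 had values of 47.2, 9.24 and 9.63 without UV and 181, 23.3 and 29.8 after UV. Replicate 1 was far above the other libraries in both conditions, and the change of 1.82 ± 0.85 did not pass (adjusted p = 0.102). H3C7 showed the same order, with 6.35, 0.162 and 0.152 before and 29.0, 0.813 and 1.22 after UV (2.19 ± 1.39, adjusted p = 0.216). Within same-numbered libraries, which deviated together in this line, both genes were higher after UV in all 3 pairs. With the replicate number as a block both were called higher, H3C1 by 1.72 ± 0.10 (adjusted p = 1.45e-20) and H3C7 by 2.23 ± 0.23 (adjusted p = 2.8e-12), which brought the count in HEK293 to 47 of 50. H2BC3 and H3C3 were near 1 or below in this line, with changes of 1.00 ± 0.43 and 1.03 ± 0.65 that passed neither with nor without the block. Without replicate 1 of both conditions of HEK293, an alternative chosen after seeing the data, 47 of 51 genes were called higher.

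The form of the hairpin and the length of the exons were set beside the size of the effect. In HepG2 the median log2 fold change was 2.58 for 30 genes with the H1-2 form, 2.44 for 6 with the H2BC11 form and 2.63 for 7 with the H4C3 form. For HEK293 the corresponding medians were 1.90, 1.82 and 2.04, for Neuro2a 2.08, 2.18 and 2.37 and for HippCulture 1.78, 1.81 and 1.88. All 18 genes with the H4C3 form are H4 genes, so form and family cannot be told apart. Genes with exons of up to 1000 bases had medians of 2.60, 2.01, 2.18 and 1.89 in the 4 cell types, and those with longer exons 2.38, 1.74, 2.09 and 1.62. Across genes, Spearman's ρ between exon length and log2 fold change was −0.47 for HepG2 and −0.45 for HEK293 (n = 50 each), −0.10 for Neuro2a and −0.36 for HippCulture (n = 57 each). These genes share libraries and many share sequence, so ρ is a description only.

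Other protein-coding genes of short exon length were also higher after UV, by less. In HepG2, 258 with exons of at most 1000 bases had a median of 1.38 and 73.6% of them were called higher. Such genes had medians of 0.96 in HEK293, 1.45 in Neuro2a and 1.03 in HippCulture, and 57.8%, 68.6% and 64.2% were called higher. Genes with exons over 4000 bases stood at −0.21, −0.31, −0.43 and −0.18. Length moved with the direction of change in all 4 cell types, and its part in the result for the histone genes was not tested.

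**Figure D4:**
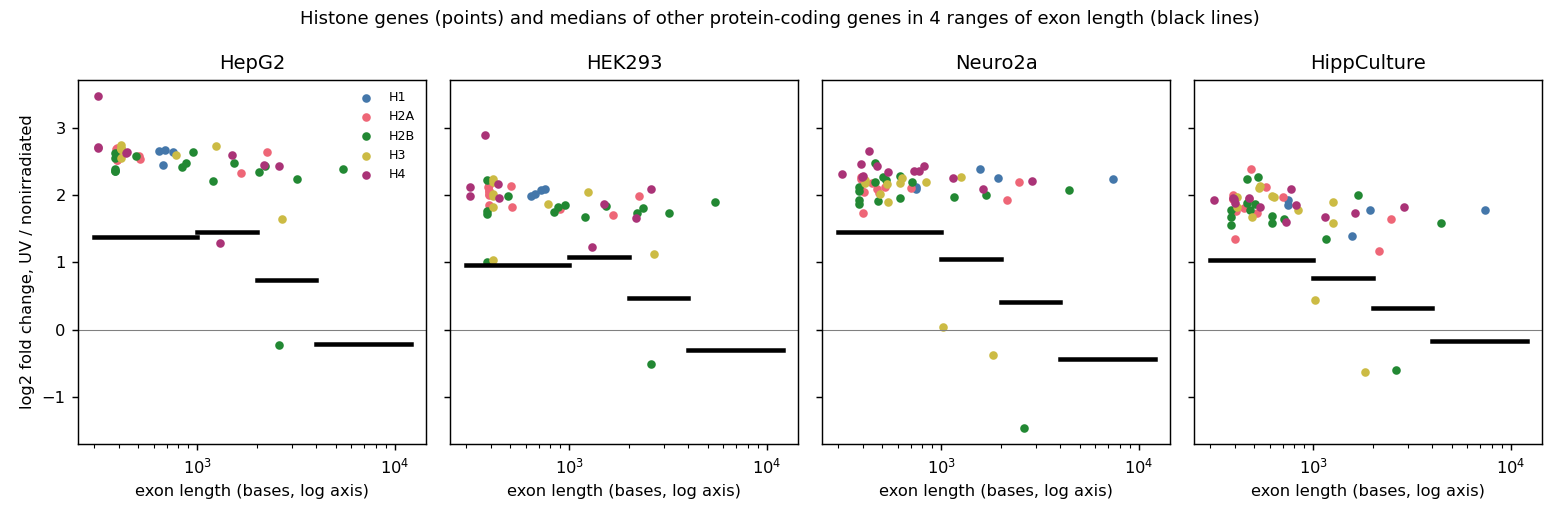
Log2 fold change (UV/nonirradiated, y axis) against exon length in bases (x axis, log scale) for each histone gene tested, coloured by family, with black lines at the median of other protein-coding genes in 4 ranges of length. Histone genes of up to 1000 bases have a median of 2.60 in HepG2, against 1.38 for other protein-coding genes of that length.

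The same genes were compared between the cell types of each species. In HepG2 and HEK293, 45 genes were tested in both lines and 41 were called higher in both, with a Spearman's ρ of 0.60 between the fold changes. In Neuro2a and HippCulture 55 were tested in both and 52 were higher in both, with ρ = 0.32. Depth and platform differ within the human pair, and these values are descriptions. Among all genes tested, the shares called higher by single fits were 38.1% (HepG2), 24.2% (HEK293), 28.9% (Neuro2a) and 26.1% (HippCulture). The share of all genes called higher in both members of a pair is not given here, nor is ρ over all genes. Whether the agreement between cell types is particular to histone genes was therefore not tested.

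Whether the effect itself differed was tested as an interaction in a joint fit of 12 libraries per species. Between HEK293 and HepG2, none of 55 genes passed with edgeR (smallest adjusted p = 0.123), where 3.5% of all genes were called higher in HEK293 and 1.23% lower. At an unadjusted p under 0.05 there were 13, all with the smaller effect in HEK293, and DESeq2 called 2. The median difference (HEK293 minus HepG2) was −0.45 beside −0.02 over all genes. A replicate block raised the calls to 19, of which 18 were lower in HEK293. Leaving out HEK293 UV replicate 1 raised them to 32, all lower. Shares of all genes called under these alternatives are not given here.

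Between HippCulture and Neuro2a, 3 of 59 genes had a smaller effect in HippCulture and none a larger one, where 3.08% and 14.7% of all genes were called. The 3 were Hist1h1c (−0.86 ± 0.21, adjusted p = 0.00352), Hist3h2a (−0.62 ± 0.18, adjusted p = 0.013) and Hist3h2ba, an H2B gene (−0.57 ± 0.18, adjusted p = 0.0217). A replicate block gave 14 such genes, the size factors of DESeq2 8 and DESeq2 as the test 7. The median difference of the histone genes was −0.22 and that of all genes 0.30, and by library total alone these were 0.29 and 0.78. On that scale none of these 3 passed (adjusted p = 0.183 to 0.833), and 4 others, Hist2h2be, Hist1h2bm, Hist1h2ag and Hist1h3a, were called in the opposite direction. Without Neuro2a nonirradiated replicate 1 there were 15 genes with a smaller effect in HippCulture. There was 1 without HippCulture UV replicate 1, and there were 5 without HippCulture UV replicate 2 or nonirradiated replicate 1. For these alternatives too, shares over all genes are not given.

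Levels in nonirradiated cells were called different between cell types far more often than the UV effect was, among all genes as among the histone genes. HEK293 had 26 of 55 genes higher than HepG2 and 19 lower, beside 36.4% and 40.6% of all genes, and the split became 33 and 16 by library total alone. H2AC25 and H2BC26, which lie side by side on human chromosome 1, were nearly restricted to HEK293 among the human lines. H2AC25 had 0 counts over the 3 nonirradiated HepG2 libraries and 2810 over those of HEK293, at least 4310-fold higher in HEK293 in CPM with a floor of 3 counts over the group. H2BC26 had 4 counts against 3284, and jointly scaled CPM of 0 to 0.0485 against 59.6 to 81.9. In the other direction, H3C3 was at 175 to 212 on the same scale in HepG2 and 0.0653 to 0.591 in HEK293, a log2 difference (HEK293 minus HepG2) of −9.28 ± 0.30 (adjusted p = 2.92e-13). H1-5 was at 31.2 to 41.7 and at 0 to 0.261, and H2AC14 at 30.6 to 43.8 and 0 to 0.177. The abundant H1-2 differed little by comparison, at 308 to 404 and 474 to 770 (0.70 ± 0.20, adjusted p = 0.00411). These genes were picked out by the size of the difference after their values were seen.

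HippCulture had lower levels than Neuro2a for 52 of 59 genes and higher levels for 3, beside 40.3% and 39.6% of all genes, with a median log2 difference (HippCulture minus Neuro2a) of −2.61. Hist4h4, an H4 gene, was at 92.9 to 144 jointly scaled CPM in Neuro2a and 5.11 to 7.13 in HippCulture (−4.23 ± 0.17, adjusted p = 1.53e-19). Hist1h1a was at a median of 196 and a median of 14.2 (−4.05 ± 0.20). The groups were far apart for both. Hist1h4c was at 20.3 to 28.5 and 20.0 to 26.4, a difference of −0.05 ± 0.13 that did not pass (adjusted p = 0.736). The 3 genes higher in HippCulture were Hist1h2bf, Hist1h2ad and Hist1h3d. Of these Hist1h3d had 2 counts over the nonirradiated Neuro2a libraries and 200 over those of HippCulture, a ratio in CPM of 100 (95% interval 27.5 to 835, counting error only). Markers of dividing cells moved with these levels: Mki67 was at 223 to 324 CPM in Neuro2a and 22.8 to 33.2 in HippCulture, and Top2a at 788 to 1150 and 33.4 to 43.9. Their part in the difference was not tested.

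**Figure D5:**
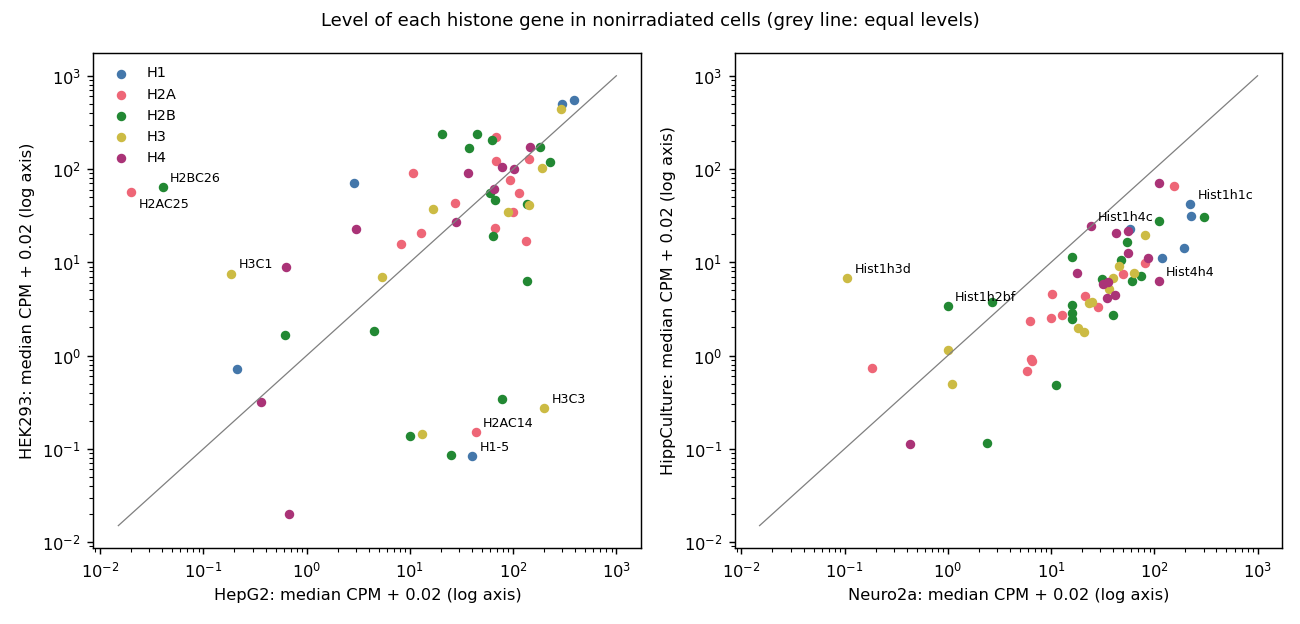
Median jointly scaled CPM over 3 nonirradiated libraries, with 0.02 added, for each histone gene in HEK293 against HepG2 (left) and in HippCulture against Neuro2a (right), on log axes; colours are families and the grey line marks equal levels. Human genes scatter to both sides of the line, with H2AC25 and H2BC26 near 0 in HepG2, and 52 of 59 mouse genes were called lower in HippCulture.

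Replacement histones, which are made throughout the cell cycle and mostly from polyadenylated mRNAs, had smaller median changes, at 1.28 (HepG2), 0.89 (HEK293), 0.64 (Neuro2a) and 0.66 (HippCulture). The difference from the replication-dependent genes was not tested. Of 11 tested in each cell type, 9 were higher and 1 lower for HepG2, 7 and 0 for HEK293, 9 and 0 for Neuro2a and 7 and 0 for HippCulture. By library total alone these became 4 and 4, 3 and 2, 2 and 6, and 4 and 4. The medians became −0.03, 0.12, −0.55 and 0.10. With TMM factors, 38.1%, 24.2%, 28.9% and 26.1% of all genes tested were called higher in these cell types. Those called lower were 40.7%, 26.4%, 33.0% and 25.9%. H2AX, the variant phosphorylated at DNA breaks, was the member of this list whose 3′ sequence also held a hairpin. It rose from 22.8, 22.4 and 23.9 to 104, 114 and 101 in HepG2. The log2 fold changes were 2.21 ± 0.07 and 1.89 ± 0.21 in the human lines (HepG2 first), and those of mouse H2afx 2.22 ± 0.20 in Neuro2a and 1.35 ± 0.11 in HippCulture. The gene stayed higher by library total alone, by 0.80 to 1.11. H2AZ1 (H2afz), a variant found at promoters, had changes of 1.66, 1.26, 1.47 and 0.66, which were 0.35, 0.49, 0.29 and 0.10 by library total alone. H3-3A, which encodes H3.3, rose by 0.85 in HepG2 but stood at −0.46 by library total alone.

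Genes of histone mRNA production were called in both directions in each cell type, as were all genes tested. Of the list of 26, 12 of 25 tested were higher and 8 lower for HepG2, 7 and 6 of 26 for HEK293, 6 and 13 of 25 for Neuro2a and 6 and 8 of 25 for HippCulture. Of all genes tested, the shares called higher were 38.1%, 24.2%, 28.9% and 26.1% in the same order. The shares called lower were 40.7%, 26.4%, 33.0% and 25.9%. By library total alone the splits were 1 higher and 22 lower, 3 and 17, 0 and 23, and 0 and 15, with the median of all genes shifted downward as described. SLBP, which binds the hairpin, was at 20.0, 27.1 and 24.5 without UV and 34.5, 35.6 and 35.9 after UV in HepG2, a rise of 0.56 ± 0.11 (adjusted p = 0.00116) that turned to −0.74 by library total alone. Its change in HEK293 was 0.57 ± 0.12, or −0.19 by library total alone, while in Neuro2a and HippCulture Slbp fell by 0.83 and 0.29 on the log2 scale. NPAT, the coactivator of histone transcription, was lower in all 4 cell types, at −0.70, −0.90, −0.99 and −0.48, and so was CASP8AP2, a protein of the histone locus body, at −1.06, −1.17, −0.93 and −0.56. Of the Sm-like subunits particular to the U7 particle, LSM10 rose by 1.90, 1.67, 1.03 and 0.68, with the Neuro2a value at −0.17 by library total alone, whereas LSM11 had changes of −0.79, −1.38, −0.19 and −0.62. Only in HEK293 did the U7 RNA gene RNU7-1 pass the filter, with a change of 1.49 ± 0.48 (adjusted p = 0.0275).

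DNA replication genes, which share the S phase timing of the histone genes, had smaller medians than these. Of 36 tested in each cell type, 24 were higher and 4 lower for HepG2, 19 and 6 for HEK293, 19 and 3 for Neuro2a and 22 and 0 for HippCulture, with medians of 0.53, 0.36, 0.45 and 0.50. By library total alone the split turned to 3 higher and 28 lower, 4 and 18, 0 and 26, and 1 and 7. The median of all genes on that scale was −1.39, −0.84, −1.33 and −0.59, and shares called there were not counted. With TMM factors, 38.1%, 24.2%, 28.9% and 26.1% of all genes tested were called higher. Those called lower were 40.7%, 26.4%, 33.0% and 25.9%. Histone chaperones, 17 tested in each, were 11 higher and 4 lower, 5 and 3, 6 and 8, and 5 and 4, and by library total alone 0 and 14, 0 and 11, 0 and 15, and 0 and 11. Of 4 genes of dividing cells, MKI67 and TOP2A had log2 fold changes of −0.82 and −0.61 for HepG2, −0.49 and −0.85 for HEK293, −0.46 and −0.68 for Neuro2a and 0.04 and −0.27 for HippCulture. The cyclin gene CCNB1 rose in HepG2 and HEK293, by 1.196 and 0.70, but stood at −0.11 and −0.07 by library total alone. Cdk1, the kinase of mitotic entry, rose in Neuro2a and HippCulture by 0.69 and 0.65, values that became −0.50 and 0.11. By library total alone no gene of this list was called higher.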

How the data were processed

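Replicates were described by the study as biological triplicates. The authors used Ribo-Zero against ribosomal RNA, prepared TruSeq libraries (the labels name a stranded mRNA kit, the methods TruSeq RNA v2), mapped reads to hg38 or mm10 with TopHat2 2.1.1 and, per the file headers, produced the deposited counts of each gene by featureCounts 1.5.3 (6 HepG2 files) or 1.6.1 (18 files). Reads on several genes were counted for each, and no strand option was set. The values are raw counts without normalization.

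Everything else was computed from these counts. Names came from GENCODE v44 and vM21, matched by identifier for 98.93% of the 58381 human and 99.82% of the 53715 mouse genes, and 4 human histone genes were matched by position (at least 80% overlap). The genes, gene lists and tests were chosen with earlier results of these data known. UV and nonirradiated libraries were compared in each cell type with edgeR 4.0.16 (R 4.3.3; quasi-likelihood test, TMM, Benjamini-Hochberg adjustment over all genes tested, adjusted p under 0.05). Standard errors are the log2 fold change divided by the square root of F. Cell types were compared in joint fits per species. DESeq2 1.42.0, other scalings and filters, a replicate block and leaving out each library were the alternatives. Scripts were tested on simulated data. Genes were named by a rule: in each cell type the member of each family with the highest RPKM, the 4 extreme changes in each direction, the H1 genes and the longest genes or those without a hairpin, from which the text draws. Sequences were read from GRCh38 and GRCm38.

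Same-numbered libraries deviated together in HEK293 (correlations of deviations 0.70, 0.43 and 0.52) and in Neuro2a (0.36, 0.13 and 0.19). The main fits, with their errors and adjusted p, did not use this pairing, and only the replicate block modelled it. Those of HepG2 did not (−0.03 to 0.00). In HippCulture the correlations were weakly positive (0.15, 0.08 and 0.07), above those of differently numbered libraries (−0.12 to 0.02).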

Additional observations from a re-analysis of the deposited data

Results flagged for a closer look

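For 3 of 59 histone genes tested the UV effect differed between the mouse cell types by the interaction term in edgeR. Of all genes tested, 3.08% were called lower in HippCulture and 14.7% higher. The log2 difference, HippCulture minus Neuro2a, was −0.86 for the linker histone gene Hist1h1c, −0.62 for the H2A gene Hist3h2a and −0.57 for the H2B gene Hist3h2ba. All 3 genes rose in both cell types. Hist3h2ba went from 122, 97.6 and 87.6 to 565, 493 and 443 TMM-scaled CPM in Neuro2a and from 27.8, 32.8 and 29.2 to 75.5, 101 and 93.1 in HippCulture, without overlap in either. Relative to the median difference of all genes, the 3 stood at −1.16, −0.92 and −0.87. Hist1h1c kept its call without each library in turn. Hist3h2a lost it without HippCulture UV replicate 1 (adjusted p = 0.0502) or nonirradiated replicate 3 (0.0553), and Hist3h2ba without HippCulture UV replicate 1 (0.0833) or nonirradiated replicate 2 (0.0535) or without Neuro2a nonirradiated replicate 3 (0.0588). By library total alone the differences were −0.38, −0.12 and −0.08 and none passed. Relative to the median of all genes they were −1.16, −0.90 and −0.85, near the former values by construction, since scaling moves all genes alike. Hist3h2a shares 708 exon bases with Trim17 and Gm44313.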

How the results depend on the processing

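By library total alone, the medians of the histone genes were 1.25 (HepG2), 1.19 (HEK293), 0.98 (Neuro2a) and 1.28 (HippCulture), and the genes called lower numbered 1, 1, 3 and 2. With at least 10 counts in every library no gene was called lower in Neuro2a, since Hist2h2be was not tested, and in HippCulture none was called lower with DESeq2, without a filter or with the replicate block. Among genes with at least 80% unique 50-base windows, 13 of 14 were higher in each mouse cell type, fewer because fewer entered. The interaction between the human lines called 1 gene with the 0.5 CPM filter over all libraries, 1 without a filter, 2 with DESeq2 and 19 with the replicate block. Between the mouse cells it called 7 with DESeq2, 7 without a filter, 5 with at least 10 counts, 8 with the size factors of DESeq2, 14 with the replicate block and, in the opposite direction, 4 by library total alone. The replicate block added the calls of H3C1 and H3C7 in HEK293 (47 of 50). It left the numbers called higher in the other cell types unchanged, while the interaction calls rose as given above. Without each library in turn, medians were 2.36 to 2.62 for HepG2, 1.65 to 2.17 for HEK293, 1.94 to 2.46 for Neuro2a and 1.77 to 1.93 for HippCulture. Genes called higher numbered 49 to 49, 45 to 46, 53 to 54 and 54 to 54, and those called lower in HippCulture 0 to 1. The interactions called 0 to 32 and 1 to 15 genes and the levels 42 to 46 and 54 to 55. Shares of all genes called under the alternatives are not given here. Of 947 values of named genes under alternatives, 936 kept direction and call, 9 lost the call, 2 gained one and 0 reversed. Beyond what construction shows, the cause was not tested. Depth limits single genes in the mouse cells and HEK293, where low genes rest on a few counts.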
